A study of Mus musculus with 4 samples.

Results

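Transcripts of vesicle coats, sorting nexins, SNAREs and related genes of membrane traffic were examined in mouse testis labelled Ppp2ca-cKO and in wild-type testis. The members were all transcripts whose gene symbol begins with a name of the adaptor complexes, clathrin, dynamins, epsins, GGA proteins, sorting nexins, Vps and Chmp proteins, the exocyst, syntaxins, Vamp and Snap proteins or synaptotagmins, taken from the authors' list of transcripts that differ between genotypes. The rule gave 73 transcripts of 53 genes among 11304 listed transcripts of 7453 genes. No transcript of an epsin, a GGA protein, a Vamp or a Snap protein was on the list. The mice were C57BL/6, and RNA of the left testis at postnatal day 56 was sequenced. There were 2 wild-type (WT) libraries and 2 libraries labelled Ppp2ca-cKO, whose genotype is given as Ppp2ca-/-. The product of Ppp2ca is the alpha form of the catalytic subunit of protein phosphatase 2A. The sources used here do not name the Cre driver or the cells in which the gene was deleted, and no transcript of Ppp2ca was listed (0 of 11304), so the deletion was not checked.

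Membrane proteins move between compartments in vesicles. Coats select cargo and bend the membrane, with adaptor complexes joining clathrin to the cargo, and dynamins cut the neck of the bud. Sorting nexins and the retromer return cargo from endosomes, ESCRT proteins sort it into the lysosomal path, tethers such as the exocyst hold a vesicle at its target, and SNAREs, with synaptotagmins as calcium sensors, drive fusion. In the testis these steps are known from acrosome formation and exocytosis in germ cells and from the endocytosis of junctions and residual bodies by Sertoli cells.

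The WT libraries held 17612201 and 19783821 reads, the cKO libraries 18684496 and 19835003. Levels are given as normalized counts, which are the deposited expected counts divided by the authors' size factors, in the order of replicate 1 and replicate 2, with the WT before the cKO where a sentence sets one pair against another. Normalized counts are not corrected for length, so they group transcripts by the reads behind them, and the levels of different transcripts are ranked as FPKM (fragments per kilobase of transcript, scaled to the reads of the library). Fold changes are cKO over WT on the log2 scale with the standard error of the fit, and a transcript is said to have risen or fallen where the adjusted p of edgeR's quasi-likelihood test was under 0.05. Nothing in the labels says more about the origin of the replicates than that they are separate samples, so the p-values speak of the spread among these 4 libraries, which may be technical.

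Marker transcripts of the cell types of the testis differed between genotypes. All 10 elongating spermatid markers were listed and 9 fell, and their summed normalized counts were 237338 and 262233 against 5072 and 18983. Of 8 round spermatid markers 7 fell, with sums of 19939 and 24562 against 1924 and 3128. Of 5 listed spermatocyte markers 2 fell (67632 and 82694 against 26022 and 31709), and of 5 listed spermatogonial markers 0 passed the edgeR test, with 5 at an unadjusted p under 0.05, 2 called by DESeq2, 5 called by edgeR under TMM and 5 under library totals, and sums of 441 and 883 against 2112 and 2000. Of 8 listed Sertoli markers 4 rose (12481 and 13957 against 31911 and 34629), of 3 tested Leydig markers 3 rose (5633 and 4795 against 15718 and 22886 over the 4 listed), and of 5 leukocyte markers 3 rose (630 and 711 against 2482 and 2329). The only one of these markers at 0 in a genotype was the listed transcript of the Leydig gene Hsd17b3. Apart from the spermatogonial calls under TMM and library totals, these calls and sums are with the authors' size factors. The markers of the other cell types are not given under the other scalings. The scaling to equal Sertoli counts used below sets the summed Sertoli marker counts equal by design. The part of this marker shift in the results below was not tested, and in whole tissue fewer cells of a type and less RNA per cell cannot be told apart.

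In the comparison of the genotypes, 10 of the 16 members that fell had a mean of at least 500 normalized counts, and the 14 that rose had means of 5.42 to 116, with the size factors of the authors. On the whole list too, transcripts with many reads were less often higher than scarce ones, as given below. Its called transcripts were not counted by level. Of 69 tested member transcripts 16 fell (23.2%) and 14 rose (20.3%), against 41.4% lower and 10.4% higher over all 10716 listed transcripts tested. The median log2 fold change of the tested members was 1.20, against -1.70 over all listed transcripts tested. In the authors' deposited table, 45 of the 73 members were higher in the cKO (61.6%), against 3736 of 11304 listed transcripts (33.1%). The members that fell included the clathrin adaptor subunit Ap2b1, the retromer subunit Vps26a, the endosomal sorting nexin Snx3, the ESCRT ATPase Vps4a and the lipid transfer protein Vps13a. Members that rose were mostly scarce, with a median of 18.5 for their mean normalized counts, and included transcripts of Dnm2, Dnm1l, Snx1, Syt7 and Syt12.

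With the authors' size factors, members with many reads behind them were mostly lower and scarce ones mostly higher. Of 17 members with a mean of at least 500 normalized counts, 13 were lower in the cKO, 10 of them called, and 4 were higher, with 0 called by edgeR, 4 at an unadjusted p under 0.05 and 3 called by DESeq2. Under TMM and library totals, the scalings described below, edgeR called 4 and 3 of these 4 higher. Of 27 members with a mean under 50, 20 were higher. Over the whole list, 19% of transcripts of at least 500 and 37.7% of those under 50 normalized counts were higher in the authors' deposited table. There, unlike among the members, most of the scarce transcripts were lower too. Transcripts between these bounds are not counted here. The 10 members with the highest mean FPKM all had lower values in the cKO. In descending order they were Snx3-201, Vps26a-202, Ap2b1-202, Snx1-203, Ap3b1-201, Vps4a-201, Ap3d1-201, Ap2b1-206, Dnm2-201 and Vps13a-205. Of the 14 transcripts that rose, 9 were at 0 in both WT libraries, and of the 16 that fell, 3 were at 0 in both cKO libraries. Over all listed transcripts, called or not, 7.09% were at 0 in both WT libraries and 7.82% in both cKO libraries. The other 39 tested members had adjusted p-values from 0.0513 to 0.249, and 4 were left out by the filter on low counts. In every one of the 73 members the libraries of the genotypes did not overlap, which held for 11302 of the 11304 listed transcripts (100% after rounding).

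**Figure D1:**
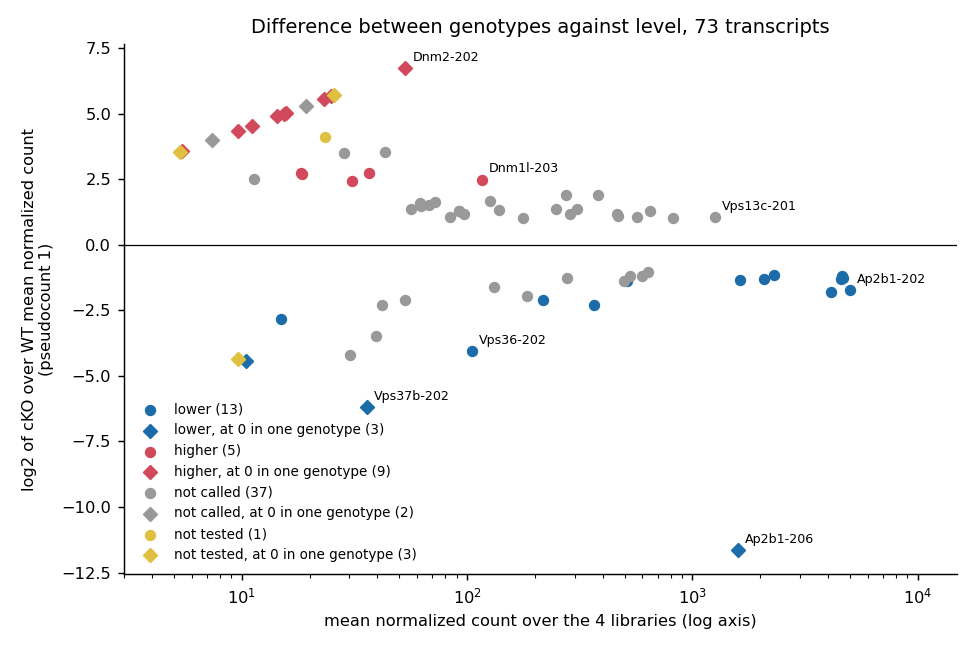
Each point is 1 of the 73 transcripts, with its mean normalized count over the 4 libraries on a log axis and the log2 ratio of the cKO mean to the WT mean (pseudocount 1) on the vertical axis. Colour shows the call by edgeR and diamonds mark transcripts at 0 in both libraries of a genotype. Of the 17 points at 500 or more, 13 are lower in the cKO, and of the 27 under 50, 20 are higher.

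These directions depend on how the libraries are scaled. Against the authors' size factors, TMM scaling of the listed transcripts moved the median log2 fold change of all listed transcripts by 1.64, library totals by 0.57 and equal Sertoli counts by -1.41. Of 67 members tested under all 4 scalings, 43 kept the sign of their fold change, 12 changed sign under TMM, 12 others under equal Sertoli counts, and 0 under library totals. Under TMM 2 members fell (2.78%) and 43 rose (59.7%), against 12.3% and 34.5% of all listed transcripts. Under library totals 6 fell (8.45%) and 35 rose (49.3%), against 30.4% and 27.8%. With equal Sertoli counts 28 fell (41.2%) and 4 rose (5.88%), against 68.9% and 2.93%. TMM and the Sertoli sum were computed on transcripts that the authors had listed as different. The calls that held under all 4 were those of 6 transcripts: Ap2b1-206 and Vps37b-202 fell, and Dnm2-202, Stx1a-205, Syt7-203 and Vps29-205 rose. Each of the 6 was at 0 in both libraries of a genotype and passed the filter on low counts through the other genotype alone. Scaling cannot turn the sign of such a transcript. No member with reads in both genotypes kept its call under all 4. Without WT replicate 1 or WT replicate 2 edgeR called 0 members, and 0 of all listed transcripts, with 51 and 51 members at an unadjusted p under 0.05. Without cKO replicate 2, 24 members fell and 28 rose.

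**Figure D2:**
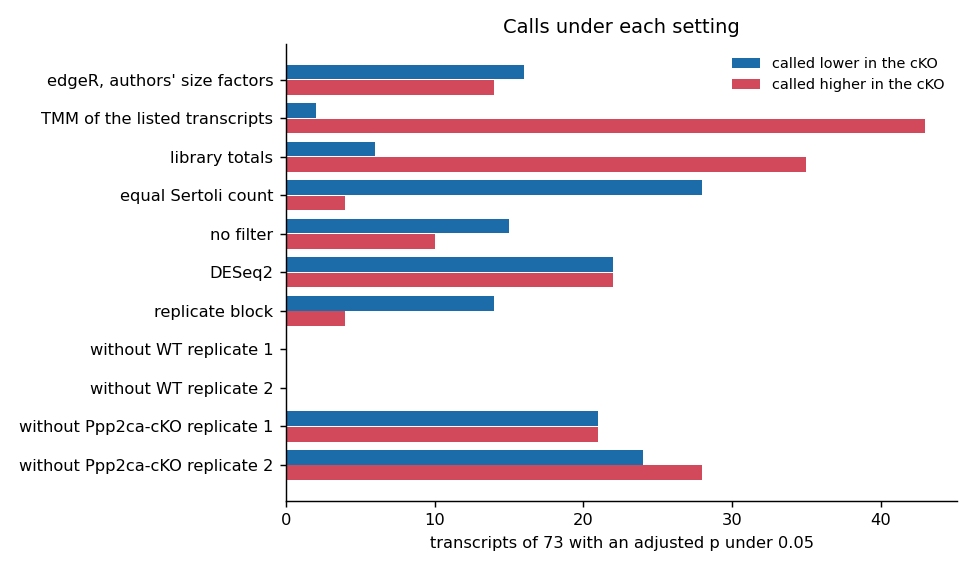
Bars give the number of the 73 transcripts with an adjusted p under 0.05 in each direction, for the size factors of the authors and for each alternative. The count of 16 lower and 14 higher becomes 2 and 43 under TMM and 28 and 4 with equal Sertoli counts, and no bar is drawn where a WT library is left out because the count is 0.

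Adaptor complexes were represented by 10 transcripts of 7 genes, of which 4 fell and 4 rose. For this and the groups below, the shares over all listed transcripts tested were 41.4% lower and 10.4% higher. The groups are small and were not tested against these shares. Ap2b1 (chromosome 11, 83299024 to 83405035, GRCm38, plus strand) encodes the beta subunit of AP-2, the adaptor that binds clathrin at the plasma membrane. Its main listed transcript, Ap2b1-202, stood at 7349 and 7960 normalized counts against 2040 and 2579 (log2 fold change -1.73 ± 0.24, adjusted p = 0.0225). Under TMM its log2 fold change was -0.21 and the call was lost (adjusted p = 1). In FPKM its mean was 112 ± 1.16 for the WT and 49 ± 6.69 for the cKO (SD, n = 2 each). A further coding transcript, Ap2b1-206, was at 3081 and 3297 in the WT and at 0 in both cKO libraries, at least 2645-fold lower with a floor of 3 counts over the group (adjusted p = 0.0154). Of the 17 members with a mean of at least 500 it was the only one at 0 in a genotype, and it had the smallest p of all members. Ap2b1-206 holds a coding exon of 42 bases that Ap2b1-202 lacks, and the pair also differs in the extent of an early coding exon and in the transcript ends. This exon, exon 14 of 21, is shown in capitals between 15 bases of its neighbours in lower case (chr11:83364795-83364836, plus strand, GENCODE transcripts on GRCm38).
Ap2b1-206 exon 14: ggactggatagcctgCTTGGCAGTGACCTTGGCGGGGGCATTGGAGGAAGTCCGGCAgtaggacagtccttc

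The estimated reads of the Ap2b1 pair went 29.5% (95% Wilson interval 28.6 to 30.5) and 29.3% (28.4 to 30.2) to Ap2b1-206 in the WT libraries. In the cKO libraries its share was 0 of the pair's reads, which allows up to 0.119% and 0.0931%. Such shares do not depend on the scaling of the libraries, but reads that both transcripts could have given are divided between them by an estimate, and intervals and floors cover counting error only.

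AP-3, which sorts cargo to lysosomes and related organelles, had lower large subunits. Ap3b1-201 fell from 6566 and 6352 to 2483 and 2818 (-1.28 ± 0.22, adjusted p = 0.0318), but its log2 fold change turned to 0.23 under TMM. Ap3d1-201 fell from 6173 and 6566 to 2506 and 3147 (-1.17 ± 0.24, adjusted p = 0.0443), turning to 0.34 under TMM. The transcripts of the small AP-3 subunit Ap3s1 were scarce and went up: Ap3s1-204 rose from 4.35 and 3.96 to 36.6 and 29.3 (2.94 ± 0.57, adjusted p = 0.0401), and Ap3s1-202 rose from 0 and 0 to 17.1 and 27.2, at least 12.3-fold higher (adjusted p = 0.0363). With equal Sertoli counts neither passed, at adjusted p-values of 0.354 and 0.0554. A decay-annotated Ap3d1-203 was at 102 and 39.7 against 16.3 and 11 without passing (-2.36 ± 0.64, adjusted p = 0.0947). Ap4b1-202, of the AP-4 complex of the trans-Golgi network, was at 345 and 438 against 121 and 206 without passing (-1.26 ± 0.39, adjusted p = 0.133), turning to 0.25 under TMM. A transcript of the AP-1 subunit gene Ap1b1 (0 and 0 to 42.8 and 20.2, at least 17.6-fold higher) and a transcript of the AP-5 subunit gene Ap5m1 (0 and 0 to 22 and 16.6, at least 10.8-fold higher) rose. With equal Sertoli counts neither of these passed, at adjusted p-values of 0.0616 and 0.0634.

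Clathrin and the dynamins gave 10 transcripts of 4 genes, of which 4 fell and 2 rose, and 5 of them belong to Dnm2 (chromosome 9, 21424908 to 21507759, plus strand). Dynamin 2 is the broadly expressed GTPase that releases endocytic vesicles. Its main listed transcript, Dnm2-201, fell from 2558 and 2103 to 907 and 918 (-1.35 ± 0.24, adjusted p = 0.033), turning to 0.16 under TMM. Dnm2-202 was at 0 in both WT libraries and at 58.2 and 155 in the cKO, at least 59.3-fold higher (adjusted p = 0.0294). The cKO libraries differ from each other here, with replicate 2 the higher. The transcripts Dnm2-207 (-2.30), Dnm2-205 (-2.11) and Dnm2-213 (-3.21), none of them annotated as coding, fell too, with adjusted p-values of 0.0403, 0.0381 and 0.0436. Of these 3, 0 passed by edgeR under TMM, with 0 at an unadjusted p under 0.05, and 0 passed under library totals, with 3 at an unadjusted p under 0.05. DESeq2 called 2 of the 3 and left out Dnm2-213 (adjusted p = 0.0951), which edgeR did not call either without either cKO replicate (0.0607 without replicate 1 and 0.0882 without replicate 2).

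Dnm2-201 and Dnm2-202 carry alternative versions of exon 10 that are never joined in the same transcript of this pair. Both versions are 139 bases long and share the base at 95 positions (68.3%). They are printed because they are the longest coding difference between the form that fell and the form that rose, with the exon in capitals and 15 shared bases on each side in lower case. The version in Dnm2-202 lies at chr9:21478899-21479037 and that in Dnm2-201 at chr9:21480407-21480545, both on the plus strand.
Dnm2-202 exon 10: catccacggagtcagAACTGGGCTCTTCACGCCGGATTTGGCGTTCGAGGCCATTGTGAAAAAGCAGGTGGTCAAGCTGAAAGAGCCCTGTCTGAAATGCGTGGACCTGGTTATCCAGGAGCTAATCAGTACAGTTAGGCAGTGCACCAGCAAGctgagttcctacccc
Dnm2-201 exon 10: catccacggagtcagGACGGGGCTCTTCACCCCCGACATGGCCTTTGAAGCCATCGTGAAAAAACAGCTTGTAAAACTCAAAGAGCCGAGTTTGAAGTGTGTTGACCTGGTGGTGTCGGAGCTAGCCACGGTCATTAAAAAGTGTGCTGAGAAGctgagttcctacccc
Dnm2-201 also has an exon of 12 bases, its exon 14 (chr9:21490658-21490669), that Dnm2-202 lacks.
Dnm2-201 exon 14: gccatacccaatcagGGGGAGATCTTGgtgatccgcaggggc

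Of the estimated reads of the Dnm2 pair, 6.03% (95% Wilson interval 4.81 to 7.52) and 14.4% (12.6 to 16.4) belonged to Dnm2-202 in the cKO libraries. In the WT libraries the share was 0, which allows up to 0.143% and 0.167%. The cKO libraries differed in this share by more than their counting intervals.

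Dnm1l encodes the dynamin-related protein that divides mitochondria and peroxisomes and is not a vesicle coat protein. Dnm1l-203 rose from 38.3 and 30.2 to 212 and 182 (2.52 ± 0.38, adjusted p = 0.0251), and with equal Sertoli counts it was at 1.19 and did not pass (adjusted p = 0.24). Dnm1l-202 was at 202 and 198 against 38 and 90.4 without passing (-1.64 ± 0.50, adjusted p = 0.13). Dnm1l-203 made up 15.8% (11.4 to 21.6) and 13.3% (9.26 to 18.8) of the reads of this pair in the WT and 84.8% (80.4 to 88.4) and 66.8% (61.6 to 71.6) in the cKO, so it was the minor form of the pair in both WT libraries and the major one in both cKO libraries. The transcripts begin at different first exons. The annotated coding bases number 1761 in Dnm1l-203 and 2136 in Dnm1l-202, so the exons printed here are not the whole coding difference. Internal coding exons found in only 1 of the pair are exons 15 and 16 of Dnm1l-203 (chr16:16318764-16318841 and chr16:16318445-16318477) and exon 3 of Dnm1l-202 (chr16:16342697-16342735). All are on the minus strand and shown 5′ to 3′ with the exon in capitals.
Dnm1l-203 exon 15: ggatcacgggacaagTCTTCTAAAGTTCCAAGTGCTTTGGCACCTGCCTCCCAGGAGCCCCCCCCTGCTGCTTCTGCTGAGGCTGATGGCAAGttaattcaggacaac
Dnm1l-203 exon 16: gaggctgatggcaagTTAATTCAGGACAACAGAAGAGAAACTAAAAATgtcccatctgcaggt
Dnm1l-202 exon 3: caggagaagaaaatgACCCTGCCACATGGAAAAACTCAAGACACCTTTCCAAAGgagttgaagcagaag

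The lengths of these exons are multiples of 3 (26, 11 and 13 codons). Among the remaining transcripts of this group, those of the clathrin light chain Cltb and of Dnm1 were higher without passing. Cltb-204, a retained intron form, was at 31 and 30.9 against 73 and 90.8 (1.41 ± 0.43, adjusted p = 0.13). Cltb-201 stood at 62.8 and 55.2 against 118 and 152 (1.20 ± 0.38, adjusted p = 0.15), and at -0.15 on the log2 scale with equal Sertoli counts. A scarce transcript of Dnm1, the dynamin best known from neurons, was at 0 and 0 against 19.8 and 9.68 (adjusted p = 0.0556).

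Sorting nexins, which bind endosomal lipids through a PX domain, gave 13 transcripts of 9 genes, of which 1 fell and 3 rose. Snx3 (chromosome 10, 42502030 to 42535381, plus strand) recruits retromer to endosomes. Snx3-201 had the highest mean FPKM of all members, at 118.14 and 121.35 against 78.9 and 79.62. Its normalized count fell from 3028 and 3279 to 1414 and 1465 (-1.13 ± 0.22, adjusted p = 0.0411), turning to 0.39 under TMM. Snx3-202 rose from 0 and 0 to 24.5 and 74.5, at least 27.6-fold higher (adjusted p = 0.0443), a call lost with equal Sertoli counts (0.0508). The expected counts of the pair sum to whole numbers in every library, 2476.00 and 2800.00 against 1780.00 and 1925.00, although the counts of each transcript in the cKO are not whole. Snx3-202 lacks exon 2 of Snx3-201, which has 96 bases and 32 codons and lies at chr10:42525954-42526049.
Snx3-201 exon 2: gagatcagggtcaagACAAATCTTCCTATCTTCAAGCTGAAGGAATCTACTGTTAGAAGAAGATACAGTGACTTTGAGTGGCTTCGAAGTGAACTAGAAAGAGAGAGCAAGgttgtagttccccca

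Snx3-202 took 1.69% (1.18 to 2.4) and 4.83% (3.96 to 5.88) of the reads of the pair in the cKO. Its share was 0 in the WT, which allows up to 0.121% and 0.107% by the limit of 3 counts. Snx1 forms membrane tubules with retromer. Its listed coding fragment Snx1-203 was at 898 and 773 against 346 and 384 without passing (-1.19 ± 0.26, adjusted p = 0.052), turning to 0.32 under TMM. Snx1-204, annotated as a retained intron, rose from 3.46 and 4.72 to 34.1 and 31.2 (2.92 ± 0.56, adjusted p = 0.0383), but not with equal Sertoli counts (1.62, adjusted p = 0.308). A retained intron transcript of Snx32, a relative of the retromer-linked nexins, rose from 10.7 and 6.84 to 72.1 and 57.5 (2.83 ± 0.53, adjusted p = 0.037), again not with equal Sertoli counts (1.5, adjusted p = 0.331).

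The other nexin transcripts did not pass. Snx18-201, of a nexin with an SH3 domain that acts in endocytosis, was at 262 and 329 against 599 and 680 (1.11 ± 0.28, adjusted p = 0.0784), and Snx30-201 at 104 and 130 against 227 and 248 (1.02 ± 0.33, adjusted p = 0.154). Both turned with equal Sertoli counts, to -0.21 and -0.31. The X-linked Snx12 had a pair of coding transcripts, Snx12-201 (7.4 and 0 against 56.4 and 49.3, adjusted p = 0.089) and Snx12-202 (42.3 and 64.1 against 149 and 113, adjusted p = 0.165), the latter turning to -0.02 with equal Sertoli counts. Snx10-206 (1.35) and Snx19-203 (1.54), annotated as retained introns, had adjusted p-values of 0.109 and 0.0998. Snx29-201 pointed the other way, at 84 and 32.4 against 0 and 4.49 (-4.54 ± 1.14, adjusted p = 0.0756), and Snx29-204, at 8.51 and 30 against 0 and 0, was not tested.

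Of the 11 Vps transcripts outside ESCRT, 2 fell and 1 rose. Retromer, the coat that returns receptors from endosomes, is built from Vps35, Vps29 and either Vps26a or Vps26b, and the forms of Vps26 differed in direction. Vps26a-202 (chromosome 10, 62455235 to 62486805, minus strand) fell from 6707 and 6383 to 2944 and 2531 (-1.26 ± 0.23, adjusted p = 0.0341), turning to 0.27 under TMM. Vps26b-201 (chromosome 9, 27007771 to 27030065, minus strand) was at 230 and 334 against 602 and 690 without passing (1.20 ± 0.31, adjusted p = 0.084), and its fold change became -0.13 when Sertoli counts were made equal. In FPKM, which allows the level of these transcripts to be compared, Vps26a-202 was at 130.5 and 116.6 against 81.85 and 67.72, while Vps26b-201 was at 3.17 and 4.32 and at 11.86 and 13.04. Of this pair of listed transcripts, Vps26a-202 was the more abundant in each library. Unlisted transcripts of either gene are not counted here. Counted as estimated reads, with no correction for length, Vps26b-201 had 3.31% (2.88 to 3.81) and 4.97% (4.44 to 5.56) of the pair in the WT and 17% (15.9 to 18.1) and 21.4% (20.2 to 22.7) in the cKO. A noncoding transcript of Vps29 rose from 0 and 0 to 27.3 and 34.1, at least 17.1-fold higher (adjusted p = 0.0282), and Vps35 was not among the listed transcripts.

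The Vps13 proteins are long bridges that carry lipids between membranes. Vps13a-205, annotated as a target of nonsense-mediated decay, fell from 6776 and 6111 to 2059 and 1616 (-1.81 ± 0.25, adjusted p = 0.0216). Under TMM its log2 fold change was -0.28, without a call. The paralogs were higher and did not pass. Vps13c-201 was at 935 and 692 against 1812 and 1589 (1.06 ± 0.27, adjusted p = 0.0758), and its fold change became -0.28 when Sertoli counts were made equal. Vps13d-210 was at 126 and 103 against 254 and 621 (1.93 ± 0.51, adjusted p = 0.085). Vps18, a core subunit of the HOPS and CORVET tethers of late and early endosomes, was at 210 and 543 against 817 and 1034 (1.30 ± 0.49, adjusted p = 0.249), with the WT libraries far apart. A transcript of Vps33b, which pairs with Vipas39, was at 12.2 and 0 against 54.5 and 107 (adjusted p = 0.134), and the noncoding Vps50-204, from a gene of the EARP tether, at 191 and 394 against 69.7 and 79.6 (-1.98 ± 0.46, adjusted p = 0.0619). The name rule also took Vps72, whose mammalian product acts in chromatin on histone H2A.Z and not on vesicles. Its retained intron transcript was at 31.1 and 33 against 113 and 72.2 and did not pass (adjusted p = 0.124). Vps9d1-213 was at 0 and 0 against 58.6 and 18.5 (adjusted p = 0.0513).

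ESCRT complexes bud membrane away from the cytosol, in endosomes, at the end of cell division and at damaged membranes. Of 6 ESCRT transcripts of 5 genes, 3 fell and 0 rose by edgeR, with 1 higher at an unadjusted p under 0.05, Chmp7-203, which DESeq2 did not call either (0 of 1). Over all listed transcripts tested 41.4% fell and 10.4% rose, and no test was run on a group this small. Under TMM (3.14, adjusted p = 0.0098) and library totals (2.15, adjusted p = 0.0382) edgeR called Chmp7-203 higher. Vps4a, the ATPase that takes ESCRT-III filaments apart, fell from 3114 and 2813 to 1176 and 1239 (-1.30 ± 0.23, adjusted p = 0.0321), turning to 0.22 under TMM. The retained intron transcript Vps36-202, from an ESCRT-II gene, fell from 211 and 188 to 16.4 and 5.91 (-4.19 ± 0.59, adjusted p = 0.0225), with adjusted p = 0.0623 under TMM. The noncoding Vps37b-202, from an ESCRT-I gene, fell from 46.5 and 96.7 to 0 and 0, at least 59.4-fold lower (adjusted p = 0.0251). The ESCRT-III gene Chmp4b had a pair of noncoding transcripts that were lower without passing, Chmp4b-202 (103 and 43.7 against 9.99 and 1.43, adjusted p = 0.0723) and Chmp4b-203 (88.2 and 85.6 against 10.8 and 27.6, adjusted p = 0.0893). Chmp7-203, a retained intron transcript of a gene for ESCRT-III at the nuclear envelope, was at 29 and 31.2 against 104 and 83.1 (1.62 ± 0.43, adjusted p = 0.0874).

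**Figure D3:**
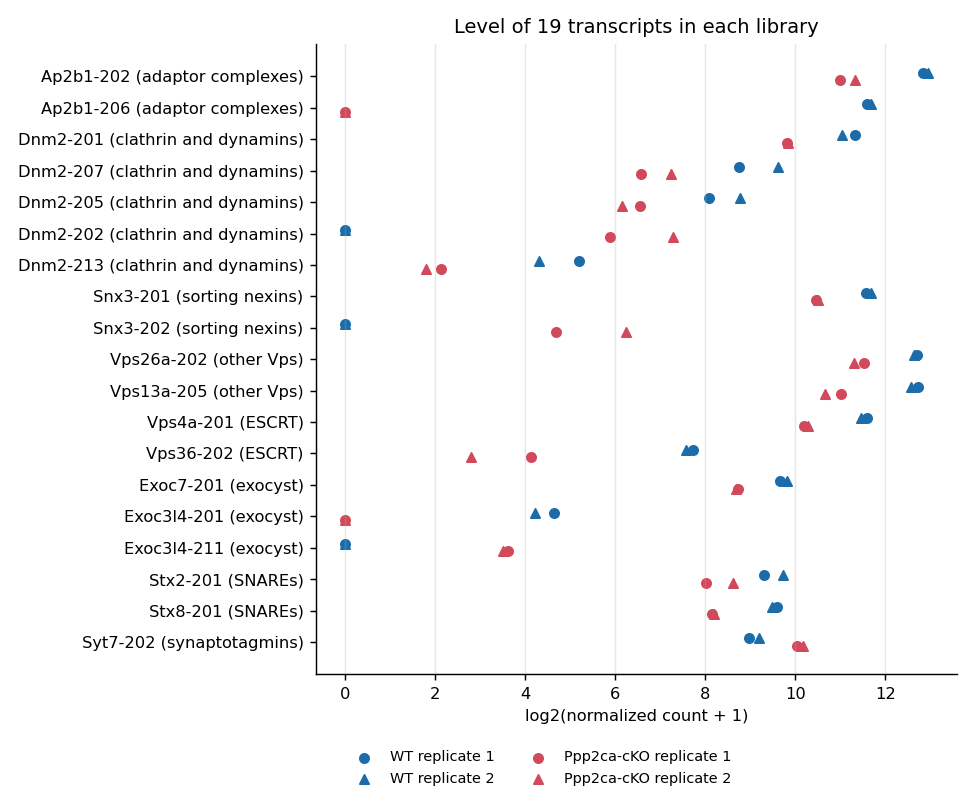
Points give log2(normalized count + 1) in each of the 4 libraries for the 19 transcripts that the naming rule took, with WT in blue, cKO in red, circles for replicate 1 and triangles for replicate 2. Ap2b1-206 and Exoc3l4-201 sit at 0 in the cKO, and Dnm2-202, Snx3-202 and Exoc3l4-211 sit at 0 in the WT.

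The exocyst tethers secretory vesicles to the plasma membrane. Of 10 transcripts of 7 genes, 1 fell and 1 rose, both of Exoc3l4, a relative of the Exoc3 subunit. Exoc3l4-201 fell from 23.9 and 17.7 to 0 and 0, at least 17.3-fold lower (adjusted p = 0.0288), and Exoc3l4-211, a retained intron form, rose from 0 and 0 to 11.3 and 10.4, at least 6.04-fold higher (adjusted p = 0.0452). The estimated reads behind these calls number at most 19.58 in a library. Under TMM the fall did not pass (adjusted p = 0.0705), and Exoc3l4-211 was not called by DESeq2 (0.253).

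The subunits of the complex itself did not pass and pointed both ways. Exoc4-201 was at 377 and 356 against 784 and 745 (1.06 ± 0.25, adjusted p = 0.0647), and its fold change became -0.27 when Sertoli counts were made equal. Exoc1-201 was at 221 and 101 against 757 and 449 (1.91 ± 0.50, adjusted p = 0.0831). Exoc2-202 was at 590 and 841 against 392 and 164 (-1.36 ± 0.48, adjusted p = 0.204), turning to 0.19 under TMM. Exoc3l-201, of another Exoc3 relative, was at 204 and 141 against 509 and 382 (1.37 ± 0.35, adjusted p = 0.0799). A decay-annotated transcript of Exoc6b was at 55.1 and 50.8 against 165 and 95.6 (adjusted p = 0.177), and Exoc3l-203, at 1.17 and 2.17 against 83 and 7.58, was not tested.

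Exoc7, the subunit that binds the plasma membrane lipid, had a pair of coding transcripts in opposite directions (chromosome 11, 116288001 to 116307233, minus strand). Exoc7-201 was at 808 and 900 against 420 and 408 (-1.05 ± 0.25, adjusted p = 0.0654), turning to 0.48 under TMM. Exoc7-202 was at 110 and 165 against 232 and 482 (1.37 ± 0.47, adjusted p = 0.187). Neither passed. Exoc7-202 had 12% (9.85 to 14.5) and 15.5% (13.3 to 18) of the reads of the pair in the WT and 35.6% (32.3 to 38.9) and 54.1% (51.2 to 57) in the cKO. It lacks exons 7 and 13 of Exoc7-201, of 93 and 39 bases (31 and 13 codons), and otherwise has the same exons. They lie at chr11:116297571-116297663 and chr11:116293275-116293313 on the minus strand.
Exoc7-201 exon 7: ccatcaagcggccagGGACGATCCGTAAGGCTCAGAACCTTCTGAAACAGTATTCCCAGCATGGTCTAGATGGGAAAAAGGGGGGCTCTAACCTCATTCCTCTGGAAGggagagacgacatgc
Exoc7-201 exon 13: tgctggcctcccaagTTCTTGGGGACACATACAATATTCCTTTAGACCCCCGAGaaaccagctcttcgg

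**Figure D4:**
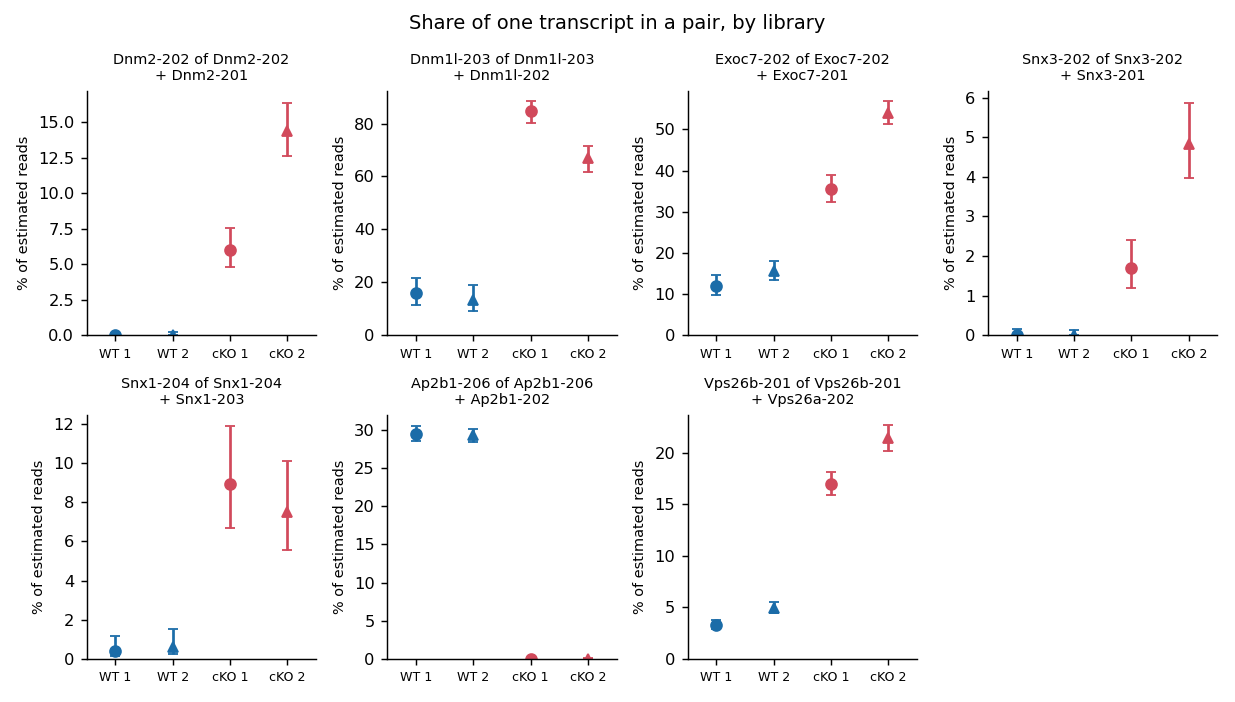
Each panel gives, for the 4 libraries, the percent of the estimated reads of a pair of transcripts that belongs to the first one named, with 95% Wilson intervals that cover counting error only (WT in blue, cKO in red). Dnm1l-203 goes from 15.8% and 13.3% in the WT to 84.8% and 66.8% in the cKO, and Ap2b1-206 goes from 29.5% and 29.3% to 0.

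In 6 of the 15 member genes with several listed transcripts, the authors' deposited table had transcripts in both directions (40%): Dnm1l, Dnm2, Exoc3l4, Exoc7, Snx1 and Snx3. Over the whole list this held for 410 of 2318 such genes (17.7%). By edgeR with the authors' size factors 3 genes had calls in both directions, Dnm2, Exoc3l4 and Snx3. Under TMM, library totals and equal Sertoli counts there were 0, 1 and 1 such genes. Genes called in both directions were not counted over the whole list. In each of the 3 the transcript that rose was at 0 in both WT libraries and passed the filter through the cKO alone. No test is given for the shares, since each transcript was listed for its difference in these same libraries. The last of the pairs, Snx1-204 and Snx1-203, had 0.407% (0.139 to 1.19) and 0.602% (0.235 to 1.54) of its reads on Snx1-204 in the WT and 8.94% (6.68 to 11.9) and 7.51% (5.55 to 10.1) in the cKO.

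SNAREs were represented by 6 syntaxin genes with 1 transcript each, of which 1 fell and 1 rose. Syntaxins are the membrane-anchored SNAREs of the target side. Stx8, a syntaxin of late endosomes, fell from 774 and 713 to 284 and 291 (-1.37 ± 0.26, adjusted p = 0.0373), turning to 0.15 under TMM. Stx2, which in mice is required for spermatocytes to complete division, was at 633 and 843 against 257 and 390 without passing (-1.19 ± 0.34, adjusted p = 0.104), turning to 0.32 under TMM. A retained intron transcript of Stx1a, the syntaxin of regulated exocytosis, rose from 0 and 0 to 51.5 and 41.1, at least 25.8-fold higher (adjusted p = 0.0248). Stx7-201, of the late endosomal SNARE that pairs with Stx8, was at 212 and 137 against 443 and 357 (1.19 ± 0.36, adjusted p = 0.124), and its fold change became -0.15 when Sertoli counts were made equal. Retained intron transcripts of Stx6 (41.3 and 27.7 against 127 and 93.8, adjusted p = 0.0949) and Stx4a (1.71 and 3.64 against 19.2 and 20.6, adjusted p = 0.0552) did not pass.

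With the authors' size factors all 7 synaptotagmin transcripts, from 4 genes, were higher in the cKO, and 2 of the 5 tested rose. Over the whole list 33.1% of transcripts were higher in the authors' deposited table, and 10.4% of those tested rose. Syt7, a calcium sensor of lysosome and slow vesicle exocytosis, had 4 coding transcripts listed (chromosome 19, 10389090 to 10453180, plus strand). Syt7-202 was at 500 and 586 against 1059 and 1148 without passing (1.02 ± 0.25, adjusted p = 0.0687), and its fold change became -0.31 when Sertoli counts were made equal. Syt7-201 was at 50.1 and 70.3 against 161 and 226 (1.68 ± 0.40, adjusted p = 0.066). Syt7-203 rose from 0 and 0 to 23.5 and 34.1, at least 16.1-fold higher (adjusted p = 0.0309), and Syt7-205, at 0 and 0 against 12.6 and 8.64, was not tested. Syt12-201, of a synaptotagmin that lacks calcium binding, rose from 11 and 7.09 to 44.9 and 60.9 (2.54 ± 0.54, adjusted p = 0.0499), but not with equal Sertoli counts (1.20, adjusted p = 0.645). Syt9-201 was at 58.4 and 48.6 against 125 and 103 (1.08 ± 0.39, adjusted p = 0.224), and its fold change became -0.26 when Sertoli counts were made equal. Syt14-203 was at 0 and 0 against 8.81 and 94.4, with nearly all of its signal in cKO replicate 2, and was not tested.

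The annotation of the members differed from that of the list. By GENCODE, 44 of the 73 transcripts were protein coding (60.3%, against 68.9% of all listed), 15 were retained introns (20.5%, against 10.8%), 7 were processed transcripts (9.59%, against 8.69%) and 7 were targets of nonsense-mediated decay (9.59%, against 5.72%). The share higher in the authors' deposited table was about the same among coding (27 of 44, 61.4%) and other members (18 of 29, 62.1%). Transcripts at 0 in both WT libraries made up 13 of 73 members (17.8%, against 7.09% of all listed) and those at 0 in both cKO libraries 4 of 73 (5.48%, against 7.82%). Only 2 members, both of Snx12, were on the X chromosome.

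Partner genes outside the name rule, such as the proteins that regulate SNAREs, the accessory proteins of endocytosis and the ESCRT-0 subunits, were also counted by the most abundant listed transcript of each gene. Of 95 such genes 40 had a listed transcript, and of 39 tested 10 fell (25.6%) and 6 rose (15.4%), against 39.8% and 11.2% of the genes tested in this way, with a median log2 fold change of 1.04 against -1.44 over all 7119 of these genes. All these partner values are with the authors' size factors, and the partners are not given under the other scalings. The clathrin assembly protein Picalm fell from 2258 and 1996 to 838 and 915 (-1.28 ± 0.23, adjusted p = 0.0353). The member Ap3b1-201, with a log2 fold change of -1.28, turned to 0.23 under TMM. The listed transcript of the endocytic scaffold Itsn1 fell from 206 and 195 to 0 and 0, at least 166-fold lower (adjusted p = 0.0155), and that of the phosphatase Synj2 from 826 and 891 to 0 and 11.6 (-7.23 ± 1.05, adjusted p = 0.0234). Vipas39, the partner of Vps33b, fell from 76.3 and 21.7 to 0 and 0, at least 40.6-fold lower (adjusted p = 0.0407). The ferlin Fer1l5 fell from 2002 and 3325 to 155 and 372 (-3.34 ± 0.53, adjusted p = 0.0269). Of the partners that rose, Tgfbrap1, a subunit of CORVET with Vps18, went from 34.3 and 21.6 to 336 and 201 (3.28 ± 0.48, adjusted p = 0.0241), and the ferlin Myof from 18.5 and 46.4 to 304 and 247 (3.07 ± 0.53, adjusted p = 0.0318). The ESCRT-0 subunit Hgs was at 2411 and 3525 against 1159 and 1706 and did not pass (-1.05 ± 0.32, adjusted p = 0.131).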

How the data were processed

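RNA was taken from the left testis of 2 WT and 2 Ppp2ca-cKO samples and sequenced after TruSeq library preparation, per the labels' protocols. The authors deposited expected counts (estimated reads) per Ensembl transcript, FPKM, a mean normalized count (signal), log2 fold changes with errors, a test score and p-values, per the file headers, for the transcripts they called different only (adjusted p up to 0.05, absolute log2 fold change of at least 1). The sources used here name no aligner, counter or strand setting. The submitters' processing notes name mm9, but the gene coordinates of all 73 members equal GRCm38, so coordinates, exons and biotypes were taken from GENCODE on GRCm38. The letters of the exons come from the transcript sequences of that annotation.

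The size factors (WT 0.818 and 0.854, cKO 1.24 and 1.25) and library totals were recovered from the deposited values. Expected counts were rounded and tested with edgeR 4.0.16 in R 4.3.3 (glmQLFit and glmQLFTest, genotype only, minimum count 10 in filterByExpr, which kept 10716 transcripts). Adjustment was by Benjamini-Hochberg over the 64840 transcripts the authors tested, those outside the list being given p = 1, with a threshold of 0.05. The fit rests on 2 residual degrees of freedom. The test was checked on simulated data. All listed transcripts were chosen by the authors on these same libraries, so a call here is not independent evidence. The libraries of a genotype differed by more than sampling noise. Where a genotype was at 0, a bound on the fold uses 3 counts over the group, and the limit on a share of 0 uses 3 counts in the library.

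The members and lists were chosen with earlier results of these data known. Named by rule were, in each role group, the transcript of the highest mean normalized count, the called transcripts with the largest fall and rise among those with a mean of at least 50, and all genes called in both directions. The other transcripts were chosen after their values were seen. Alternatives were TMM scaling (edgeR with limma 3.58.1), library totals, equal summed counts of Sertoli markers, no filter, DESeq2 1.42.0, a replicate block, and leaving out each library.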

Additional observations from a re-analysis of the deposited data

How the results depend on the processing

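Both the scaling and the loss of a WT library moved the calls. The counts that fell and rose (16 and 14 with the authors' size factors) were 2 and 43 under TMM, 6 and 35 with library totals and 28 and 4 with equal Sertoli counts. Over all listed transcripts they were 4436 and 1119, then 1295 and 3641, 3238 and 2963, and 7427 and 316. The genes called in both directions went from 3 to 0, 1 and 1, and the median log2 fold change of the members from 1.20 to 2.77, 1.73 and -0.18. TMM and the Sertoli sum rest on transcripts that the authors picked as different in these libraries, so neither is a neutral reference. Among the transcripts named by rule, TMM turned the log2 fold change of Dnm2-201 (0.16), Exoc7-201 (0.48), Snx3-201 (0.39), Stx2-201 (0.32), Stx8-201 (0.15), Vps26a-202 (0.27) and Vps4a-201 (0.22), and equal Sertoli counts that of Syt7-202 (-0.31). DESeq2 called 22 members lower and 22 higher, and no filter gave 15 and 10. Leaving out each library in turn gave 0 to 24 members that fell, 0 to 28 that rose, 0 to 4 genes in both directions and medians of 1.08 to 1.22. Both counts were 0 without either WT library, with 51 and 51 members at an unadjusted p under 0.05 by edgeR, and DESeq2 was not run there; a genotype with 1 library was assumed to vary like the other. The labels do not pair the replicate numbers, and same-numbered libraries deviated together with a correlation of 0.128. With 2 libraries per genotype this value is the same for replicate 1 and replicate 2 by construction, so it is a single observation. With the replicate block 14 members fell and 4 rose, and 1 gene was called in both directions. The cause of these differences was not tested. Depth limits the scarce members most, since a transcript at 0 in a genotype gives only a bound.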
